A study of Mus musculus with 9 samples.

Results

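The heat shock, DNAJ and CCT chaperone genes were followed in mouse thymocytes in which Cre targets the gene of the splicing factor SRSF1. Members were the protein-coding rows of the gene count table whose symbol named an Hsp70, Hsp110, Hsp90, small heat shock, mitochondrial chaperonin, DNAJ or CCT gene. The pattern matched 97 of 53715 gene rows, of which 15 were pseudogenes and 82 were members. By family, 14 members were Hsp70 and Hsp110 genes, 3 were Hsp90 genes, 2 were the chaperonin pair Hspd1 and Hspe1, 10 were CCT genes, 4 were DNAJA, 13 DNAJB and 28 DNAJC genes, and 8 were small heat shock protein genes. A filter on low counts left 71 members for testing. The other 11 had at most 27 counts in any library, and 3 of them had 0 counts in all 5.

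Bulk RNA-seq was made from C57BL/6 mice aged 6 to 8 weeks, from thymocytes sorted as TCRβ+ CD69+ CD24+ CD4+ CD8+. The WT group had 3 libraries, and the labels give its genotype only as WT. The SRSF1KO group had 2 libraries of genotype Srsf1fl/flLckcre/+, in which Cre recombinase driven by the T-lineage gene Lck deletes a loxP-flanked Srsf1, so loss is limited to cells that have expressed the Cre. Whether each replicate is a separate animal is not stated, so p-values speak only for the spread among these libraries, which may be technical.

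Library totals ran from 36026006 to 38985285 counts. Srsf1 stood at 96.9 to 122.7 CPM (library-scaled counts) in WT and at 42.6 and 30.9 CPM in SRSF1KO, a ratio of means of 0.342, so transcript counted to the gene was reduced and not absent. The genes of the sort gate were present in every library, with 14300 to 16100 CPM summed over 12 gate and T cell genes. WT replicate 2 and SRSF1KO replicate 1 had the male pattern of sex-linked transcripts and the other 3 the female pattern. The 10 genes with most counts held 6.77% to 8.27% of counts in WT and 10.2% and 9.92% in SRSF1KO. In bulk samples such as these, fewer cells of a type and less RNA per cell cannot be told apart.

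Chaperones bind unfolded or partly folded proteins and keep them from aggregating. Hsp70 proteins hold short exposed stretches of a client in a cycle driven by ATP, in which J-domain proteins of the DNAJ families start ATP hydrolysis and Hsp110 proteins exchange the nucleotide. Hsp90 takes over many signalling proteins, among them the T cell kinase Lck, the CCT ring folds actin and tubulin in the cytosol, and Hspd1 with its lid Hspe1 folds proteins inside mitochondria. Heat shock factor 1 switches on many of the cytosolic and mitochondrial genes through heat shock elements, which are alternating GAA and TTC units. The unfolded protein response of the endoplasmic reticulum (ER) switches on Hspa5 and its partners through ER stress elements.

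The promoter sequences are shown because the members differ in which of these elements stands next to their start. RefSeq promoter windows (GRCm38.p6, 250 bases before to 50 after a start) were listed for 67 of the 82 members. The heat shock element was searched as 3 units, GAA, TTC and GAA, each parted from the next by NN (any 2 bases), on both strands. Matches on the 2 strands overlap where a run has more than 3 units. It was found in 4 of the 67 members (5.97%) and in 0.662% of all 27025 genes with a window. The ER stress element was searched as CCAAT followed by NNNNNNNNN (any bases) and CCACG, also on both strands. It was found in 3 of the 67 members (4.48%) and in 0.137% of all genes. Capitals mark the matched letters, each stretch reads 5′ to 3′ on the strand of its gene, and a match is a description of the letters only.

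The heat shock element run shared by Hspd1 and Hspe1, chr1:55088054-55088081, printed on the plus strand, on which Hspe1 is read, lies 71 bases before the start of Hspe1. Hspd1, on the minus strand, has 2 listed starts, and the run lies inside its span, after the outermost start and 126 bases before the other. The run is made of 2 overlapping matches:
Hspe1 and Hspd1: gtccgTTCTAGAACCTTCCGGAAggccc
Dnajb6, chr5:29735847-29735869, plus strand, 33 bases before the start: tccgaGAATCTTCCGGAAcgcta
In Hsph1, the remaining member with this element, the same match lies after each of 2 listed starts and is not printed.

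The ER stress elements lay before the start in all 3 genes that had them, and Hsp90b1 had 2:
Hspa5, chr2:34772020-34772048, plus strand, 46 bases before the start: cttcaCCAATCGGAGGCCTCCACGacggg
Dnajc3, chr14:118937822-118937850, plus strand, 86 bases before the start: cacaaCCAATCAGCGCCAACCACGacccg
Hsp90b1, chr10:86705633-86705661, minus strand, 193 bases before the start: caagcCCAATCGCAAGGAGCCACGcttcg
Hsp90b1, chr10:86705528-86705556, minus strand, 88 bases before the start, in the opposite orientation: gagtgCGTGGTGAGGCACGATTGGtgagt

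SRSF1KO libraries were compared with WT libraries to find genes whose level differs between them. Among the chaperone genes, the J-domain gene Dnajc8 fell in SRSF1KO, and no other member passed the test (edgeR quasi-likelihood test, p adjusted over 17351 genes). The other abundant members leaned to lower levels in SRSF1KO without passing singly. That made 1 of 71 tested members lower and 0 higher, against 0.213% of all tested genes lower and 0.0519% higher. At an unadjusted p under 0.05, 13 members (18.3%) were lower and 3 (4.23%) higher, against 8.45% and 5.9% of all tested genes. At a mean of at least 10 CPM, these shares were 20.0% and 5.5% of members, against 11.6% and 8.36% of all tested genes. With DESeq2, 6 members (8.45%) were called lower and 3 (4.23%) higher, against 3.63% and 2.2% of all tested genes.

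Both SRSF1KO libraries lay below all WT libraries for 22 of 71 tested members (31.0%) and above them for 6 (8.45%), against 17.8% and 15.2% of all tested genes. At a mean of at least 10 CPM, these shares were 32.7% and 10.9% of members, against 21.1% and 16.6% of all tested genes. The median log2 fold change was −0.13 over the tested members and −0.01 over all tested genes. The lean was carried by the members with higher levels. Of the 30 members whose mean reached 100 CPM, 27 were below 0 in log2 fold change and the median was −0.19, while 52.3% of all tested genes at that level were negative, with a median of −0.01. The 3 exceptions, named after their values were seen, were Dnajc5, Dnajc3 and Dnajc15. Of the 41 members below 100 CPM, 22 were negative and the median was −0.03. With any 1 library left out, 25 to 28 of the 30 were negative, and the median was −0.11 without SRSF1KO replicate 1.

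**Figure D1:**
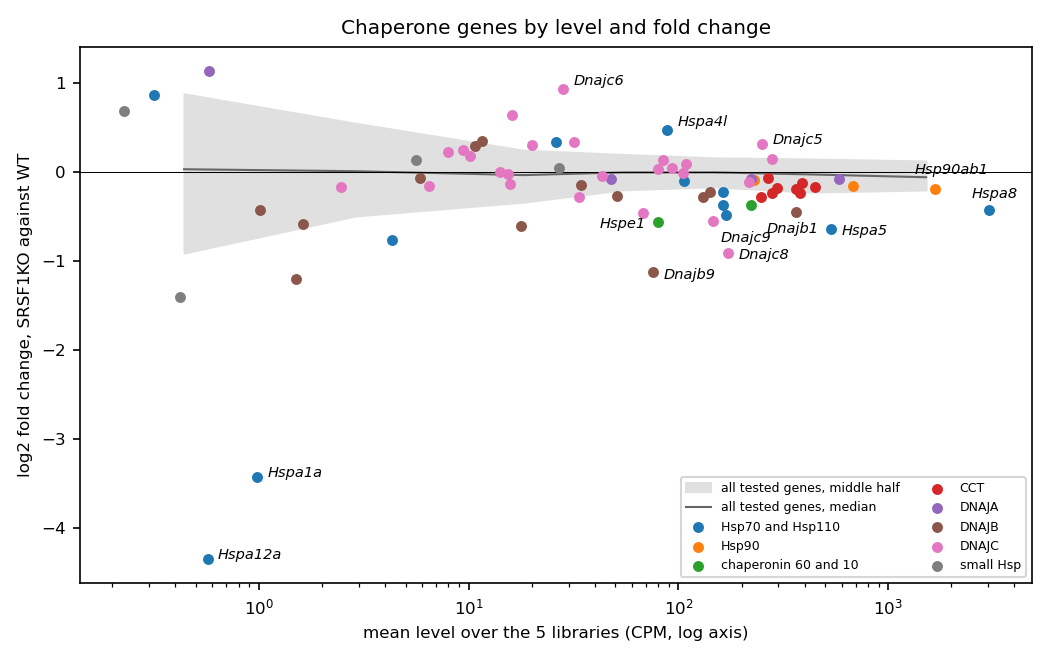
Log2 fold change of SRSF1KO against WT for each of the 71 tested chaperone genes (points, coloured by family) against the mean level over the 5 libraries in CPM on a log axis. The grey band and line give the quartiles and the median of all tested genes in 7 level classes. Most points above 100 CPM lie below 0, with Dnajc8 at −0.91 and Hspa8, at the right, at −0.43.

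The summed level of all tested members came to 14290, 14480 and 14180 CPM in the WT libraries, against 11290 CPM in SRSF1KO replicate 1 and 12860 CPM in SRSF1KO replicate 2. The SRSF1KO libraries were thus at 78.9% and 89.8% of the WT mean, with SRSF1KO replicate 1 the lower. The same order held for the Hsp70 and Hsp110 genes (65.8% and 84.1%), the chaperonin pair (68.7% and 80.7%), CCT (83.9% and 92.3%), Hsp90 (80.9% and 96.6%), DNAJB (74.4% and 77.4%) and DNAJA (91.5% and 97.5%). The groups overlapped for Hsp90, DNAJA, DNAJC and the small heat shock genes and did not for the other 4 families. The DNAJC sum, at 98.9% and 95.1%, and the small heat shock sum, at 120.0% and 86.0%, had SRSF1KO replicate 2 as the lower library. Sums weigh each member by its level. Hspa8 alone held 3366 of the 4750 CPM of its family in the WT mean, and Dnajb1 406.4 of the 937.5 CPM of DNAJB. Hspb11 held 26.7 of the 32.9 CPM of the small heat shock genes, so their sum is mostly that of 1 gene.

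**Figure D2:**
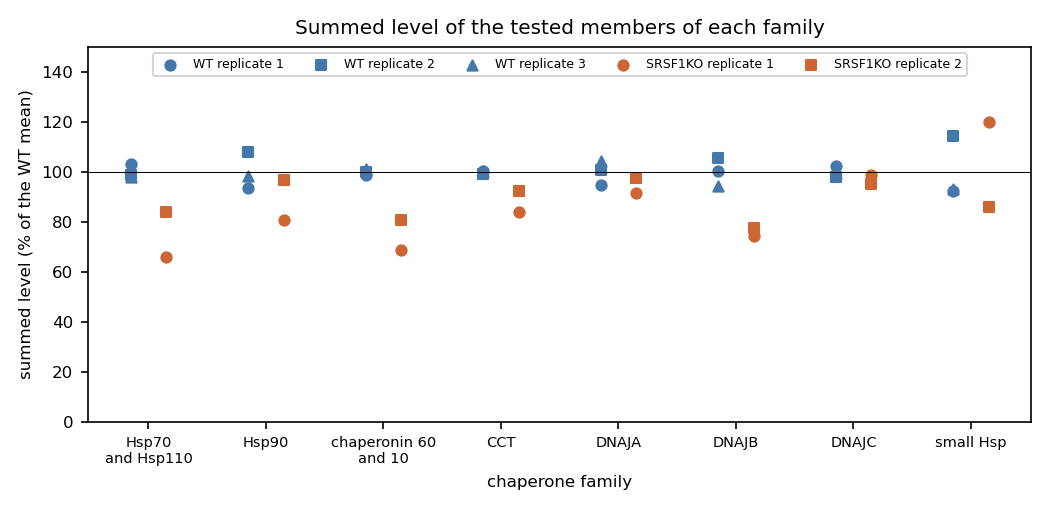
Summed level of the tested members of each chaperone family in each library, as a percentage of the WT mean of that family (blue, WT; orange, SRSF1KO; marker shape, replicate). Both SRSF1KO points lie below all WT points for Hsp70 and Hsp110, the chaperonin pair, CCT and DNAJB.

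The Hsp70 and Hsp110 genes held members that lay on opposite sides of WT, and none of the 12 tested passed. Their median log2 fold change was −0.40, with 9 negative, and −0.13 without SRSF1KO replicate 1. Hspa8, the constitutive cytosolic Hsp70 (chromosome 9, 40801276 to 40805202), stood at 3493, 3203 and 3403 CPM in WT and at 2191 and 2799 CPM in SRSF1KO. Both SRSF1KO libraries were below the WT libraries, but their own gap was wider than the WT range, and the log2 fold change of −0.43 ± 0.11 (SE) had an adjusted p of 0.169 (−0.26 without SRSF1KO replicate 1). RefSeq places 3 small nucleolar RNA genes within Hspa8, so reads of these cannot be told apart from its own without strand and length information. DESeq2 (adjusted p = 0.0228) and edgeR without the filter on low counts (0.0230) called Hspa8 lower.

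Hspa5, the Hsp70 of the ER also known as BiP, stood at 644.5, 750.8 and 481.0 CPM in WT and at 352.5 and 451.1 CPM in SRSF1KO. The groups did not overlap, although WT replicate 3 came close to SRSF1KO replicate 2. Its log2 fold change was −0.64 ± 0.20 (adjusted p = 0.217, and 0.0177 with DESeq2). RefSeq has Rabepk overlapping Hspa5. Hsph1, a cytosolic Hsp110 that exchanges nucleotide on Hsp70, stood at 179.7, 197.9 and 189.9 CPM in WT and at 100.6 and 170.6 CPM in SRSF1KO. The log2 fold change of −0.48 ± 0.21 had an adjusted p of 0.351 and was −0.15 without SRSF1KO replicate 1.

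Hspa4l, another Hsp110 relative, lay the other way. It stood at 82.6, 75.6 and 71.2 CPM in WT and at 106.4 and 105.8 CPM in SRSF1KO, with the SRSF1KO libraries close together and above WT. The log2 fold change was 0.47 ± 0.12 (adjusted p = 0.148), and DESeq2 called it higher (adjusted p = 0.0141). The stress-inducible Hspa1a and Hspa1b, named after their values were seen, were nearly silent. Hspa1a had 22, 19 and 136 counts in WT and 1 and 9 in SRSF1KO, and Hspa1b had at most 7 counts in any library. These 2 genes are near-identical copies, and reads that fit both may have been dropped or split by the counting, so their counts are uncertain.

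Hsp90 genes differed little between the groups. Hsp90ab1, the constitutive cytosolic form, stood at 1588, 1900 and 1802 CPM in WT and at 1390 and 1704 CPM in SRSF1KO. Hsp90aa1, its inducible counterpart, stood at 693.9, 792.7 and 631.9 against 588.4 and 676.8 CPM. The ER form Hsp90b1 stood at 252.0, 227.9 and 225.9 against 210.4 and 230.9 CPM. In all 3 genes SRSF1KO replicate 2 lay within the WT range and SRSF1KO replicate 1 below it. Log2 fold changes were −0.19 ± 0.12, −0.16 ± 0.12 and −0.09 ± 0.10 (adjusted p = 0.537, 0.626 and 0.772).

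The mitochondrial chaperonin genes were lower in both SRSF1KO libraries without passing. Hspe1, which encodes the lid of the chaperonin (chromosome 1, 55088148 to 55091317), stood at 85.0, 98.7 and 92.9 CPM in WT and at 60.3 and 64.4 CPM in SRSF1KO, a log2 fold change of −0.56 ± 0.13 (adjusted p = 0.127). Hspd1, the ring subunit, is read from the opposite strand (55077833 to 55088243) and stood at 246.0, 236.8 and 245.5 against 169.8 and 205.9 CPM, a log2 fold change of −0.37 ± 0.11 (adjusted p = 0.210) that was −0.24 without SRSF1KO replicate 1. Neither gene overlapped between the groups, and DESeq2 called Hspe1 lower (adjusted p = 0.00652). The RefSeq spans of the 2 genes overlap at their starts, where their reads cannot be told apart. The 15 pseudogenes left out of the members had at most 62 counts in any library.

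The members with a heat shock element in the promoter window, Hspe1, Hspd1, Dnajb6 and Hsph1, each had both SRSF1KO libraries below all WT libraries, as had 31.0% of tested members and 17.8% of all tested genes. Of those with an ER stress element, Hspa5 was below WT in both, Hsp90b1 overlapped WT, and Dnajc3 was above WT in both. No test was made of either group of promoters.

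The 8 tested CCT genes encode the subunits of 1 ring complex and were all slightly lower on average in SRSF1KO, with none past the test. Their median log2 fold change was −0.19, from −0.28 for Tcp1 to −0.07 for Cct2, and −0.11 without SRSF1KO replicate 1. Without SRSF1KO replicate 2 the value of Cct2 was 0.02. Tcp1, the subunit for which the ring is named (chromosome 17, 12916329 to 12925067), stood at 289.7, 256.5 and 255.0 CPM in WT and at 219.1 and 221.5 CPM in SRSF1KO. Its log2 fold change was −0.28 ± 0.10, with an adjusted p of 0.278. Tcp1 had the closest SRSF1KO pair of the 8. RefSeq has Mrpl18, Acat3 and small nucleolar RNA genes overlapping Tcp1, which makes its counts less certain. The same holds for Cct6a (Psph and small nucleolar RNA genes), Cct7 (Pradc1) and Cct8 (Usp16).

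For Cct3, Cct5, Cct6a and Cct8 as well, the SRSF1KO libraries lay below all WT libraries. Cct3 stood at 391.3, 414.1 and 410.0 CPM in WT and at 309.2 and 379.9 CPM in SRSF1KO (−0.23 ± 0.11, adjusted p = 0.391). Cct5 stood at 471.4, 450.2 and 479.1 against 400.6 and 430.9 CPM (−0.17 ± 0.09, adjusted p = 0.443). Cct8 stood at 387.4, 390.3 and 373.0 against 307.0 and 361.7 CPM (−0.20 ± 0.10, adjusted p = 0.432). In each of these SRSF1KO replicate 1 was the lower library, as it also was for Cct6a, at 315.4, 271.5 and 302.3 against 240.0 and 264.2 CPM (−0.23 ± 0.11, adjusted p = 0.372).

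Cct2, Cct4 and Cct7 overlapped between the groups. Cct4 stood at 273.5, 334.0 and 317.0 CPM in WT and at 258.0 and 285.4 CPM in SRSF1KO. Cct7 stood at 403.5, 381.8 and 415.5 against 342.5 and 393.4 CPM, and Cct2 at 272.9, 283.6 and 261.6 against 272.1 and 248.9 CPM. Their log2 fold changes were −0.18 ± 0.12, −0.12 ± 0.10 and −0.07 ± 0.09 (adjusted p = 0.541, 0.655 and 0.836). Summed over the 8 subunits, WT libraries stood between 2782 and 2814 CPM, a narrow range, and SRSF1KO replicates 1 and 2 at 2348 and 2586 CPM. Cct6b and Cct8l1, named after their values were seen, had at most 10 and 11 counts in any library.

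**Figure D3:**
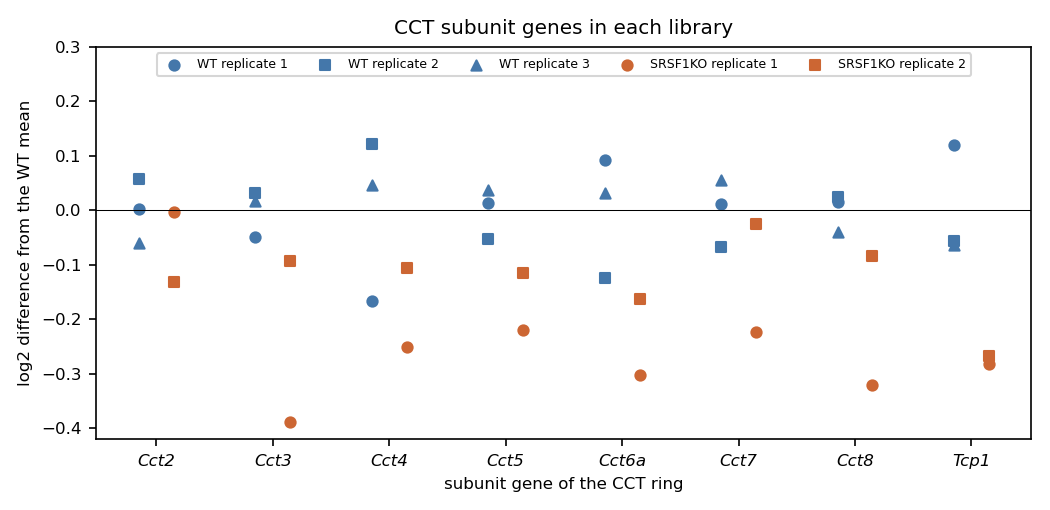
Log2 difference of each CCT subunit gene from its WT mean in each library, with 0.1 CPM added (blue, WT; orange, SRSF1KO; marker shape, replicate). SRSF1KO points lie at or below 0 for all 8 genes, and SRSF1KO replicate 1 is the lower for all but Cct2.

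The DNAJA genes encode the closest relatives of the bacterial J protein and showed no difference beyond the spread. Dnaja1, a cytosolic partner of Hspa8, stood at 560.5, 608.5 and 626.7 CPM in WT and at 542.7 and 587.7 CPM in SRSF1KO, a log2 fold change of −0.08 ± 0.09 (adjusted p = 0.776). Dnaja2, also cytosolic, had the same log2 fold change of −0.08 ± 0.10 (adjusted p = 0.806). The mitochondrial Dnaja3 stood at −0.08 ± 0.17 (adjusted p = 0.895), and at 0.09 without SRSF1KO replicate 2.

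The DNAJB genes leaned lower, with 11 of 13 tested members negative, against 50.65% of all tested genes, and a median of −0.28. Among the negative members, Dnajb3, Dnajb7 and Dnajb8, named after their values were seen, were near the floor. Their means were 1.62, 1.51 and 1.01 CPM, with SE of 0.62, 1.44 and 0.78. Dnajb1, the main stress-inducible J protein of the cytosol (chromosome 8, 83608175 to 83612653), stood at 409.2, 403.4 and 406.6 CPM in WT and at 287.0 and 307.8 CPM in SRSF1KO. The WT libraries lay close together and both SRSF1KO libraries well below them. The log2 fold change of −0.45 ± 0.09 nevertheless missed the threshold (adjusted p = 0.0971). Dnajb1 was called lower without the filter on low counts (adjusted p = 0.0397), at a mean of at least 5 CPM (0.0398) and with DESeq2 (0.00105).

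Dnajb6, which keeps aggregation-prone proteins soluble, stood at 137.3, 142.5 and 143.8 CPM in WT and at 120.5 and 112.2 CPM in SRSF1KO (−0.28 ± 0.10, adjusted p = 0.278). Dnajb2, which hands ubiquitin-tagged clients to the proteasome, stood at 22.2, 20.8 and 19.0 against 10.4 and 16.8 CPM (−0.61 ± 0.27, adjusted p = 0.367). Neither gene overlapped between the groups, and without SRSF1KO replicate 1 the log2 fold change of Dnajb2 was −0.30.

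Dnajb9, an ER partner of Hspa5, varied widely among the WT libraries. WT replicates 1 and 2 stood at 100.4 and 147.0 CPM, WT replicate 3 at 43.6 CPM and the SRSF1KO libraries at 44.0 and 44.5 CPM. WT replicate 3 was thus level with both SRSF1KO libraries, and Hspa5 was also lowest in that WT library. The log2 fold change of −1.13 ± 0.44 had an adjusted p of 0.305 and rests on WT replicates 1 and 2.

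Dnajc8 was the member that fell. It encodes a nuclear J protein found with the spliceosome (chromosome 4, 132535559 to 132553742). It stood at 211.4, 197.5 and 226.2 CPM in WT and at 121.3 and 103.9 CPM in SRSF1KO, so the highest SRSF1KO value was far below the lowest WT value. The WT mean was 211.7 ± 14.3 CPM (SD, n = 3) and the SRSF1KO mean 112.6 ± 12.3 CPM (SD, n = 2), which is 0.532 of WT in the ratio of means, with a log2 fold change of −0.91 ± 0.12 (adjusted p = 0.0483). Within the female pattern the log2 difference was −1.07 and within the male pattern −0.70, the latter from 1 library each. The call sits at the edge of the threshold. It was lost when any 1 of the 5 libraries was left out (adjusted p from 0.0735 to 0.220), with DESeq2 size factors (0.0515) and with a term for sex pattern (0.105), with a log2 fold change from −1.02 to −0.79 over these fits, and it was kept with DESeq2 (1.44e-08) and limma-voom (0.0230). RefSeq places the small nuclear RNA gene Gm24762 within Dnajc8.

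Other DNAJC genes went in both directions, and in the 25 tested the median was 0.04, with 12 negative, and 0.17 without SRSF1KO replicate 1. Dnajc9, a J protein that also chaperones histones H3 and H4, stood at 181.9, 169.1 and 149.8 CPM in WT and at 119.2 and 108.2 CPM in SRSF1KO (−0.55 ± 0.12, adjusted p = 0.127, and 0.00480 with DESeq2). The groups did not overlap. Dnajc5, the cysteine string protein of secretory vesicles, stood at 235.3, 221.9 and 230.5 against 298.8 and 271.8 CPM (0.32 ± 0.09, adjusted p = 0.203). Both SRSF1KO libraries were above WT, and DESeq2 called the gene higher (adjusted p = 0.0465).

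Dnajc6, which encodes auxilin, the J protein that uncoats clathrin vesicles, stood at 18.4, 21.8 and 21.9 CPM in WT and at 51.3 and 27.5 CPM in SRSF1KO (0.93 ± 0.28, adjusted p = 0.207). Both SRSF1KO libraries were above WT, with SRSF1KO replicate 1 far above SRSF1KO replicate 2, and the log2 fold change was 0.41 without the former. DESeq2 (adjusted p = 0.0267) and edgeR without the filter on low counts (0.0399) called it higher. Dnajc3, an ER cochaperone that also inhibits the kinase PKR, stood at 248.3, 279.1 and 275.0 against 298.4 and 294.1 CPM (0.15 ± 0.10, adjusted p = 0.548), above WT by less than the WT range.

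**Figure D4:**
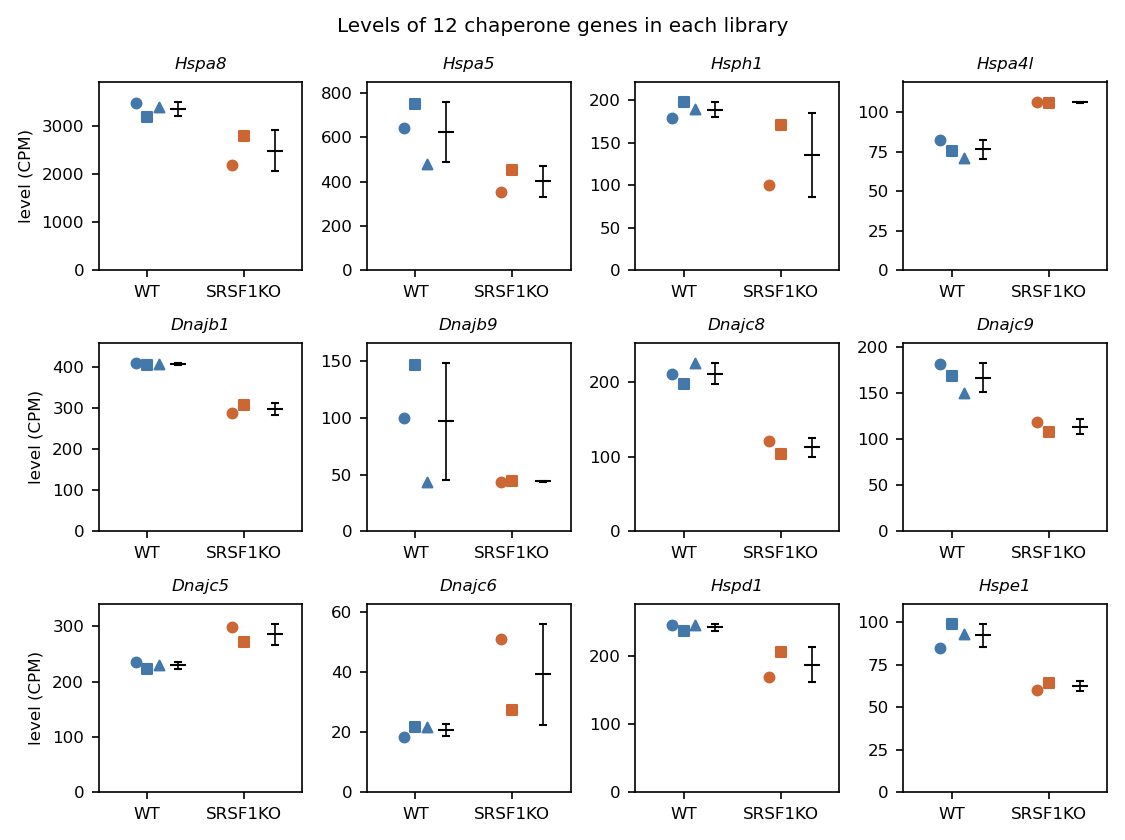
Level in CPM of 12 chaperone genes in each library (points; blue, WT, 3 libraries; orange, SRSF1KO, 2 libraries; marker shape, replicate), with the mean and SD of each group in black and all axes from 0. The groups are clear of each other for every gene shown except Dnajb9, and Dnajc8 is the gene that passed the test.

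Many small heat shock proteins are oligomers that hold unfolded proteins without ATP, and most genes of this family were scarce in these cells. Hspb11, which works in intraflagellar transport, stood at 22.5 to 30.6 CPM in WT and at 31.4 and 23.5 CPM in SRSF1KO. Hspb6 stood at 2.64 to 7.56 CPM in WT and at 7.60 and 4.25 CPM in SRSF1KO. Their log2 fold changes, 0.04 ± 0.23 and 0.14 ± 0.52 (adjusted p = 0.973 and 0.955), turned negative when SRSF1KO replicate 1 was left out (−0.19 and −0.34). Hspb1, the inducible small heat shock gene, named after its values were seen, had 0, 4 and 27 counts in WT and 0 in both SRSF1KO libraries. Of the 8 members of this family, 4 passed the filter on low counts.

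Compartments came from short lists written for this comparison, which may leave out members that work there. Of the 8 tested members listed for the ER, 5 were negative in log2 fold change, with a median of −0.06. Over all tested genes, 50.65% were negative. The 8 mitochondrial ones had a median of −0.06 with 6 negative, and the remaining 55 a median of −0.16 with 38 negative. Within sex patterns, the median over all 71 was −0.11 in the female pattern (1 SRSF1KO and 2 WT libraries) and −0.17 in the male pattern (1 of each), against 0.00 and −0.04 for all tested genes. For the Hsp70 and Hsp110 genes the corresponding medians were −0.15 and −0.55, and for Hsp90 they were 0.01 and −0.43.

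Other genes of the folding pathway were taken from lists written for this comparison, and none of their members passed the test. Of 24 cochaperones of Hsp70 and Hsp90, 10 (41.7%) had SRSF1KO below all WT libraries and 1 (4.17%) above, against 17.8% and 15.2% of all tested genes, with a median log2 fold change of −0.17. Bag2, an Hsp70 nucleotide exchange factor, stood at 11.7, 14.2 and 13.3 CPM in WT and at 4.25 and 4.76 CPM in SRSF1KO (−1.53 ± 0.29, adjusted p = 0.0964). The 2 SRSF1KO values were well below WT. Fkbp4, a prolyl isomerase that works with Hsp90, stood at 331.6, 327.0 and 329.6 against 253.0 and 272.1 CPM (−0.33 ± 0.09, adjusted p = 0.174). DESeq2 called both lower (adjusted p = 0.000248 and 0.0460).

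Of 12 genes of prefoldin, which passes actin and tubulin to CCT, and of CCT cofactors, 3 (25%) had SRSF1KO below all WT libraries and 1 (8.33%) above, near the 17.8% and 15.2% of all tested genes, with a median of −0.12. The prefoldin subunits Pfdn5 (−0.29 ± 0.11) and Pfdn2 (−0.34 ± 0.16) had the smallest p among them (adjusted p = 0.285 and 0.389). Over 11 mitochondrial folding partners and proteases the median was 0.03, with Afg3l2, a protease subunit of the inner membrane, at −0.22 ± 0.13 and the import receptor Tomm70a at 0.52 ± 0.27 (adjusted p = 0.506 and 0.439).

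The 20 ER folding partners had a median of −0.18, with 5 genes (25%) below and 3 (15%) above all WT libraries, near the 17.8% and 15.2% of all tested genes. Xbp1, a transcription factor of the unfolded protein response, stood at 158.8, 176.0 and 194.8 CPM in WT and at 305.2 and 238.8 CPM in SRSF1KO (0.62 ± 0.14, adjusted p = 0.127). Calr, an ER lectin chaperone, stood at 407.4, 470.9 and 410.3 against 290.8 and 337.7 CPM (−0.45 ± 0.11, adjusted p = 0.150). Without the filter on low counts, edgeR called Xbp1 higher (adjusted p = 0.00794) and Calr lower (0.0499). At a mean of at least 5 CPM it called Xbp1 (0.0240) and not Calr (0.0632). The 2 genes thus lay on opposite sides of WT, and gene-level counts do not show the splicing of Xbp1 that activates it. Hsf1, the heat shock factor itself, stood at 205.3, 194.8 and 173.3 against 140.8 and 186.8 CPM, with overlap (−0.22 ± 0.15, adjusted p = 0.553). Hsf4, another heat shock factor, was below 1 CPM in every library (2.12 ± 1.24, adjusted p = 0.499).

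Immediate early genes, which along with some chaperones respond to tissue handling, differed between libraries. Their sum over 20 genes was 4421, 6528 and 3792 CPM in WT and 3284 and 3876 CPM in SRSF1KO, and their median log2 fold change was −0.57, with −0.05 in the female pattern and −1.39 in the male pattern. Zfp36 stood at −0.64 ± 0.20 and Egr1 at 0.44 ± 0.14 (adjusted p = 0.232 and 0.242). WT replicate 2 had the highest sum and SRSF1KO replicate 1 the lowest, and the latter also had the lowest chaperone sum. The part of this response in the chaperone values was not tested.

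Over 20 cell cycle genes the median was 0.21, with 5 of the 20 above and 6 below all WT libraries, against 15.2% and 17.8% of all tested genes. Ccnb1 stood at 0.76 ± 0.12 and Top2a at 0.46 ± 0.11 (adjusted p = 0.0660 and 0.136). Without the filter on low counts, edgeR called both higher (adjusted p = 0.00335 and 0.0386). It also did so at a mean of at least 5 CPM (0.0121 and 0.0408), and DESeq2 called Ccnb1 higher (1.79e-05). Sums of the markers of other cells are given beside these values. The 5 tested of 7 erythroid markers summed to 9.08, 12.7 and 2.54 CPM in WT and to 99.1 and 22.9 CPM in SRSF1KO, with 4 above all WT libraries, against 15.2% of all tested genes. B cell markers summed to 513.2 to 623.4 CPM in WT and 808.7 and 609.9 CPM in SRSF1KO, myeloid markers to 101.0 to 124.0 against 134.0 and 133.2 CPM, stroma markers to 166.6 to 207.8 against 204.1 and 215.0 CPM, and γδ T and NK cell markers to 40.8 to 64.6 against 81.0 and 70.7 CPM. No marker was at 0 counts in all 5 libraries. Their part in the chaperone values was not tested.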

How the data were processed

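The authors deposited a table of raw counts of reads per gene for 53715 versioned Ensembl IDs, with no normalisation. Per the labels' protocols, libraries followed Smart-seq2. The submitters' processing notes name HTSeq 0.6.1, Bowtie2 2.1.0 and mm10, without a role. The role of each tool, the gene annotation and the strand setting: not given in the sources used here. IDs were matched to symbols (53620 matched), and biotypes and coordinates came from RefSeq GRCm38.p6. The CLIP-seq data (4 samples) were not used here.

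Groups came from sample titles. The quasi-likelihood test of edgeR 4.0.16 (R 4.3.3) was fitted on the group alone, with TMM scaling, filterByExpr and a robust dispersion prior, and with Benjamini-Hochberg adjustment over 17351 genes and calls under 0.05, two-sided. SE is the log2 fold change divided by the root of F. Levels are TMM-scaled CPM. Within-sex differences and per-library differences used log2(CPM + 0.1). Alternatives used DESeq2 1.42.0, limma 3.58.1, other scalings and filters, a replicate block and left-out libraries. Sex as a term was added after seeing the data. Scripts were tested on simulated counts.

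Members and lists were chosen with earlier results of these data known. Named genes were Srsf1, called members, in each family up to 4 members with the smallest p and the one of highest level (mean of at least 1 CPM), all tested Hsp90, chaperonin and CCT genes, and the 2 genes of smallest p in each partner list.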

Additional observations from a re-analysis of the deposited data

How the results depend on the processing

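Dnajc8 and the count of calls depended on the fit, while the lower lean of the abundant members did not reverse under any alternative run. Against 37 lower and 9 higher genes, edgeR called 7 and 3 with DESeq2 size factors, 346 and 198 with no filter, 233 and 143 when genes under 5 CPM were dropped, and 5 and 0 with sex pattern as a term. DESeq2 called 629 and 382, and limma-voom 71 and 23. Among the chaperone genes, 4 were lower and 1 higher without the filter, 3 and 0 at 5 CPM, 6 and 3 with DESeq2, and 0 lower with DESeq2 size factors or the sex term. With each library left out in turn, the calls over all genes ranged from 0 to 67 lower and 0 to 21 higher (edgeR), with 0 and 0 whenever a WT library was left out, where 1903 to 2079 genes had an unadjusted p under 0.05, 8 and 3 without SRSF1KO replicate 1 and 67 and 21 without SRSF1KO replicate 2. In the last 2 fits the lone SRSF1KO library was assumed to vary like WT. No chaperone gene was then called (0 lower). The median log2 fold change of the chaperone genes was −0.115 with DESeq2 size factors and with DESeq2, −0.112 with upper-quartile scaling, −0.147 without the filter, −0.089 at 5 CPM, −0.149 with limma-voom and −0.153 with the sex term, and −0.169 to −0.121 with 1 library left out. Family medians that moved were −0.673 for small heat shock genes without the filter, which adds genes near 0 counts, and −0.231 at 5 CPM and −0.321 with the sex term for DNAJB. With 1 library left out they ranged from −0.252 to −0.112 for CCT, −0.079 to −0.017 for DNAJA, −0.331 to −0.209 for DNAJB, −0.011 to 0.169 for DNAJC, −0.46 to −0.126 for Hsp70 and Hsp110, −0.544 to −0.377 for the chaperonin pair and −0.402 to 0.126 for small heat shock genes. The cause of these shifts was not tested. Of 597 pairs of a named gene and an alternative, 551 kept their side of the threshold, 31 passed it newly and 15 lost it. Among the 551 were 8 pairs, in 4 uncalled genes, that changed sign.

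The labels do not say whether replicate numbers pair the samples. The correlation of deviations from the group means was −0.025 for replicate 1 and 0.034 for replicate 2 over 17351 genes. With 2 SRSF1KO libraries, their deviations mirror each other, so these values cannot decide whether the numbers pair. With the replicate block 0 genes were lower and 0 higher (edgeR; 1640 genes at an unadjusted p under 0.05), 0 chaperone genes were lower (Dnajc8 −0.86, adjusted p = 0.314), and the medians were −0.151 for the chaperone genes and −0.04 for DNAJA.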
